A study of Mus musculus with 20 samples.

Results

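Cytosolic ribosomal proteins are the protein components of the ribosomes that translate nuclear messenger RNAs. Their genes were followed here in mouse breast tumors and tumor cells that lack or retain cathepsin D (CTSD), a lysosomal aspartic protease. Members were taken by symbol: protein-coding genes named Rpl or Rps followed by a number, with an optional letter, plus Rpsa, Rplp0, Rplp1 and Rplp2, and without the S6 kinases and without pseudogenes. This gave 83 genes of the 45706 gene identifiers in the count files, of which 48 belong to the large subunit, 3 to its stalk and 32 to the small subunit. The rule used no measured value. Of the 83 members, 82 passed the filter on low counts in tumors and 80 in cells. Rpl10l had no count in any sample, and Rpl3l and Rpl39l were too low for a test in cells.

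RNA was sequenced from 20 samples in 6 groups. The 8 tumors came from 18-week-old PyMT mice, which carry a viral oncogene driven by the MMTV promoter and develop mammary tumors. In the 4 Ctsd-KO tumors, Cre recombinase under the same MMTV promoter deleted Ctsd in mammary epithelium, so other cells of these tumors kept the gene. The 4 control tumors are labelled wild type. The study's controls have CTSD and may carry untargeted or floxed Ctsd alleles, and the label does not tell which. The 12 cell samples came from spontaneously immortalized PyMT tumor cells, 1 Ctsd+/+ and 1 Ctsd-/- line as far as the study's text tells, grown in medium with 1% fetal calf serum (FCS) for 10 days (1% FCS) or for 12 weeks (1% FCS LT), with 3 samples in each of the 4 groups. The study describes the samples of a cell group as independent experiments, which it counts as biological replicates. Since a genotype may be a single line, p-values for cells measure the spread between these samples and need not hold for other lines.

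Ribosomal protein genes are transcribed in every growing cell and their messenger RNAs rank among the most abundant. Most of them begin with an oligopyrimidine tract at the 5′ end, the TOP motif, through which the kinase complex mTORC1 and the RNA-binding protein LARP1 control their translation and stability. mTORC1 works on the surface of the lysosome, the organelle in which CTSD acts, and MYC is a known activator of ribosomal protein genes. The proteins are made in matching amounts, imported into the nucleolus and assembled with ribosomal RNA, while unassembled copies are degraded.

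Sequence around the annotated transcription start was searched for runs of C and T bases. Runs on either side of the start were taken, so a run need not be a TOP motif. RefSeq start sites on the assembly GRCm38.p6 were found for 63 of the 83 members, and a window from 15 bases before to 15 bases after the start was read for each. An unbroken run of at least 7 C or T bases that held a base within 5 bases of the start was found in 26 of the 63 windows (41.3%), and in 13.4% of the 26962 windows of all other genes. With at least 5 bases these shares were 54.0% and 31.4%, and the median run was 5 bases in members and 3 in other genes. The windows printed here are from genes on which the results below turn, with the run in capitals. They are written on the strand of the gene, 5′ to 3′, and the strand is given with each position. Rps6 (chr4:86857353-86857382, minus strand), Rpl38 (chr11:114668565-114668594, plus), Rpl22l1 (chr3:28805493-28805522, plus), Rps26 (chr10:128626492-128626521, minus), Rpl34 (chr3:130730384-130730413, minus), Rps27l (chr9:66946071-66946100, plus) and Rplp0 (chr5:115559452-115559481, plus) read:
Rps6: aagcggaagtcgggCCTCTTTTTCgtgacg
Rpl38: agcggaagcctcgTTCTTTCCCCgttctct
Rpl22l1: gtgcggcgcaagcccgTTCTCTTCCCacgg
Rps26: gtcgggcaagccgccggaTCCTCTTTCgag
Rpl34: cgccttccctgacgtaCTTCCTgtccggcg
Rps27l: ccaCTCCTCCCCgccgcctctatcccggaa
Rplp0: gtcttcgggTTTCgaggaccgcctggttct
The run was 10 bases long in Rps6, Rpl38 and Rpl22l1, 9 in Rps26 and Rps27l, 6 in Rpl34 and 4 in Rplp0. Members with a long run and members with a short run therefore both stand among the genes described below. The run of Rps27l begins 12 bases before the annotated start and ends before it, and that of Rps26 begins at base 4 of the transcript. A run is a description of the window and not a mapped site of transcription initiation in these cells.

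Depth was 49725437 to 62327541 gene counts in control tumors, 59897728 to 64291587 in Ctsd-KO tumors and 33622831 to 40239762 in cells. Ctsd itself was read first as a check of the labels. Its level, in counts per 1000000 scaled by the trimmed mean of M-values (CPM), was 1860.2, 2617, 1781 and 2532 in control tumors and 797, 360.2, 1295 and 1233 in Ctsd-KO tumors. In cells it ranged from 1266 to 4199 CPM in the 6 Ctsd+/+ samples and from 114 to 192 CPM in the 6 Ctsd-/- samples. The markers of luminal epithelium (9 genes, among them Epcam, Krt8 and Krt18) were detected in every sample. The 3 samples of 1% FCS Ctsd+/+ stood apart from the other cells. Their summed luminal markers were 1014, 1547 and 1859 CPM against 5237 to 11074 CPM in the other 9 samples, and their summed fibroblast markers (7 genes) 1178, 3309.6 and 1673 CPM against 3.05 to 99.8 CPM. Of the fibroblast list, 1 or 2 markers were at 0 in each of these 3 samples. The part of this difference in any result that uses the group was not tested.

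Ribosomal protein genes took up a larger share of the counts in tumors than in cells. The share was 6.73, 7.43, 11.3 and 12.7% in the 4 control tumors and 7.36, 6.52, 5.53 and 5.64% in the 4 Ctsd-KO tumors, which gives 9.54% ± 2.91 and 6.26% ± 0.85 (SD, n = 4 each). Control tumors 3 and 4 were the highest of the 8, while control tumors 1 and 2 lay within or close to the range of the Ctsd-KO tumors, so that the genotypes overlapped. In 1% FCS the share was 2.00, 2.67 and 3.54% in Ctsd+/+ cells and 3.04, 3.49 and 3.57% in Ctsd-/- cells, or 2.74% ± 0.77 and 3.37% ± 0.29 (SD, n = 3 each). In 1% FCS LT it was 4.02, 3.64 and 3.73% in Ctsd+/+ cells and 3.23, 3.02 and 3.07% in Ctsd-/- cells, or 3.80% ± 0.20 and 3.11% ± 0.11. The genotypes thus overlapped after 10 days and did not overlap after 12 weeks, when every Ctsd-/- sample was lower. Tumors and cells were sequenced with different library types, and their shares are set side by side without a test.

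**Figure D1:**
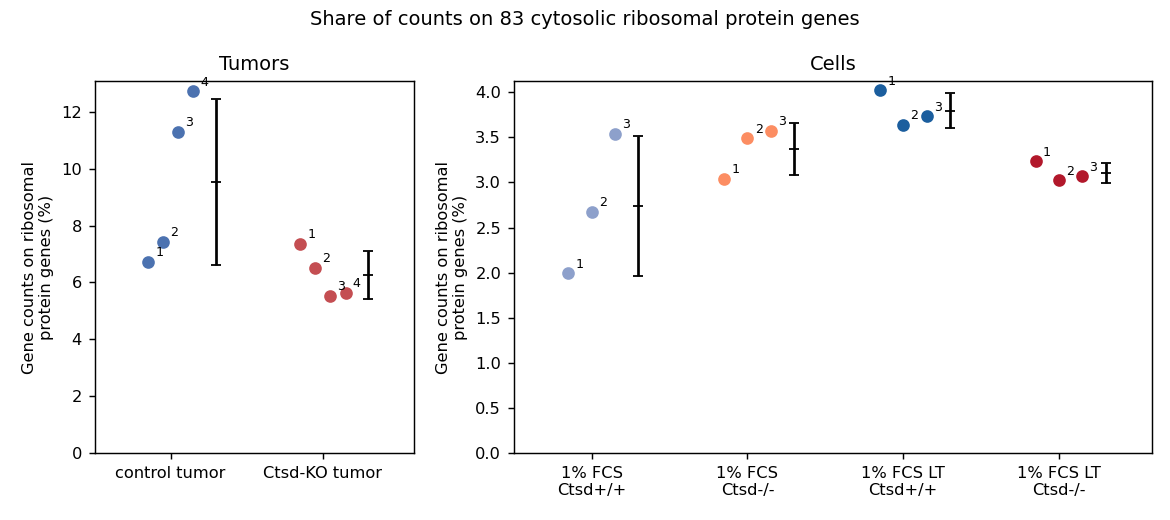
Share of gene counts on the 83 ribosomal protein genes, in percent, for each sample of the 6 groups in tumors (left) and cells (right); points are samples with their replicate number, and the bars give the mean and SD. Control tumors 3 and 4 stand at 11.3% and 12.7% above the other tumors, and the 1% FCS LT Ctsd-/- samples lie below all 1% FCS LT Ctsd+/+ samples.

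Counts were spread over many members. Rplp0, the stalk protein that anchors the others to the large subunit, had the most counts in every sample, between 3.63% and 7.25% of those of the family, and the 10 highest members together held 28.8% to 32.9%. Levels of different genes were compared per kb of transcript, since members range from 345 to 5130 bases (median 775). In tumors the highest were Rpl32 (4907 CPM per kb), Rps14 (4598) and Rpl41 (3453), and in cells Rplp0 (1459), Rplp1 (1332) and Rps9 (1049). At the low end stood forms expressed in special tissues: Rpl10l had no count, Rpl3l reached 0.56 CPM per kb in tumors and 0.011 in cells, and Rpl39l 1.8 and 0.0051. Rpl24 was also very low (0.94 CPM per kb in tumors and 0.56 in cells), and 71.5% of the bases of its transcript are shared with the annotated gene Gm28037 on the same strand. The counting dropped reads that fall on several genes, so the level of Rpl24 is uncertain. Rpl23a stood at 74.5 CPM per kb in tumors, where 55.4% of its transcript lies under Tlcd1 on the opposite strand and strand was not kept. Some annotated transcripts are long (Rps15a, 5130 bases, and Rps20, 3706 bases), which lowers their value per kb. For the median member, 54.5% of its 50-base windows also occur in other genes, in large part in the 262 named pseudogenes that 54 of the members have, and such reads were left out by the counting where they mapped to several places.

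In tumors, ribosomal protein transcripts were lower in Ctsd-KO than in control tumors. Of the 82 members tested, 81 had a lower mean, and the median log2 fold change (FC) was -0.73 beside 0.00073 for all 18617 genes tested. At the study's tumor threshold, an unadjusted p of 0.1 in edgeR's quasi-likelihood test, 67 of 82 members fell and 0 rose. Among all genes tested, 8.27% fell and 8.44% rose at this threshold. No member passed an adjusted p of 0.05, which 0.00537% of all genes did (1 gene), and 48 members had an unadjusted p under 0.05. DESeq2 and limma-voom also called 0 members at an adjusted p of 0.05, and 72 and 64 at the unadjusted threshold. In bulk tissue, fewer cells of a type and less RNA per cell cannot be told apart.

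Both subunits took part. In the large subunit 36 of 47 members fell, with a median log2 FC of -0.66. In the small subunit 29 of 32 fell, with a median of -0.85, and in the stalk 2 of 3, with a median of -0.56. The exceptions were few, and the only member with a higher mean in Ctsd-KO tumors was Rpl39l, at 0.51 to 2.31 CPM (log2 FC 0.13, SE 0.53, adjusted p = 0.944). Groups did not overlap for 5 of the members, all lower in Ctsd-KO tumors (among them Rpl11, Rplp1, Rps15 and Rps26); over all genes tested, 1.89% did not overlap and were lower and 2.26% did not overlap and were higher.

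The values by tumor show how the groups met. Rps15, which is needed for nuclear export of the small subunit, had 541, 581, 743 and 1160.2 CPM in control tumors and 494, 507, 415 and 467 CPM in Ctsd-KO tumors. Its fitted log2 FC was -0.68, SE 0.27 (adjusted p = 0.544). The lowest control tumor lay just above the highest Ctsd-KO tumor, and control tumor 4 was far above the rest. Rplp1, an acidic stalk protein that recruits elongation factors, had 1065, 1155, 1366 and 1950.3 CPM and 899.8, 978, 879 and 922 CPM, a log2 FC of -0.59, SE 0.24 (adjusted p = 0.548). Rpl11, which can bind and inhibit the p53 ubiquitin ligase MDM2 when it is not in ribosomes, had 526, 540.0, 758 and 1044 CPM and 524, 494, 423 and 473 CPM, a log2 FC of -0.58, SE 0.26 (adjusted p = 0.555). All 3 were called at the unadjusted threshold and none at the adjusted one. Control tumors 1 and 2 lay close to the Ctsd-KO tumors.

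Rps6, the substrate of the S6 kinases, had 808, 836, 1370.1 and 1690.5 CPM in control tumors and 874, 677, 643 and 618 CPM in Ctsd-KO tumors (log2 FC -0.74, SE 0.29, adjusted p = 0.544). Ctsd-KO tumor 1 was above control tumors 1 and 2, and the gene passed the unadjusted threshold, as did Rpsa and Rps27a. Rpsa, a small subunit protein first described as a laminin receptor, had 2016, 2385, 3701 and 4687 CPM and 2479.6, 1942, 1961 and 1914 CPM (log2 FC -0.62, SE 0.30, adjusted p = 0.572). Rps27a, made as a fusion with ubiquitin, had 829, 844, 1645 and 2774 CPM and 944, 722, 496 and 551 CPM (log2 FC -1.17, SE 0.41, adjusted p = 0.528). Here too Ctsd-KO tumor 1 exceeded both lower control tumors. Of the stalk, Rplp2 fell at the unadjusted threshold (log2 FC -0.51, SE 0.26, adjusted p = 0.582) and Rplp0 did not pass (log2 FC -0.56, SE 0.35, adjusted p = 0.632).

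The decrease rested on control tumors 3 and 4. They were the highest pair of the 8 tumors for 76 of the 82 members with any count in tumors, and control tumor 4 was the highest for 79. With both left out, a comparison added after the data were seen, the median log2 FC was -0.13, with 1 member higher and 1 lower at p under 0.1. Without control tumor 4 alone, 28 members fell and 1 rose, and without Ctsd-KO tumor 3, 40 fell. Control tumor 4 also had the largest share of reads set aside as overlapping several genes (15.6%, and 12.4% in control tumor 3, against 7.11% to 9.75% in the other 6 tumors). Its TMM scaling factor was 0.793, against 0.988 to 1.065 in the other tumors. A lower factor raises every CPM of a sample, and the ranks above use these CPM. Summed adipocyte markers (10 genes) were 349.9, 1129, 249 and 2286 CPM in control tumors and 3097, 1272, 8357 and 13106 CPM in Ctsd-KO tumors, with 1 marker at 0 in control tumor 1. With the mean log2 CPM of the adipocyte markers as a covariate 0 members passed p under 0.1 (median log2 FC -0.66), and with that of the luminal markers 19 fell (median -0.69). One sequencing run held every control tumor and another every Ctsd-KO tumor. Genotype and run cannot be told apart here.

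**Figure D2:**
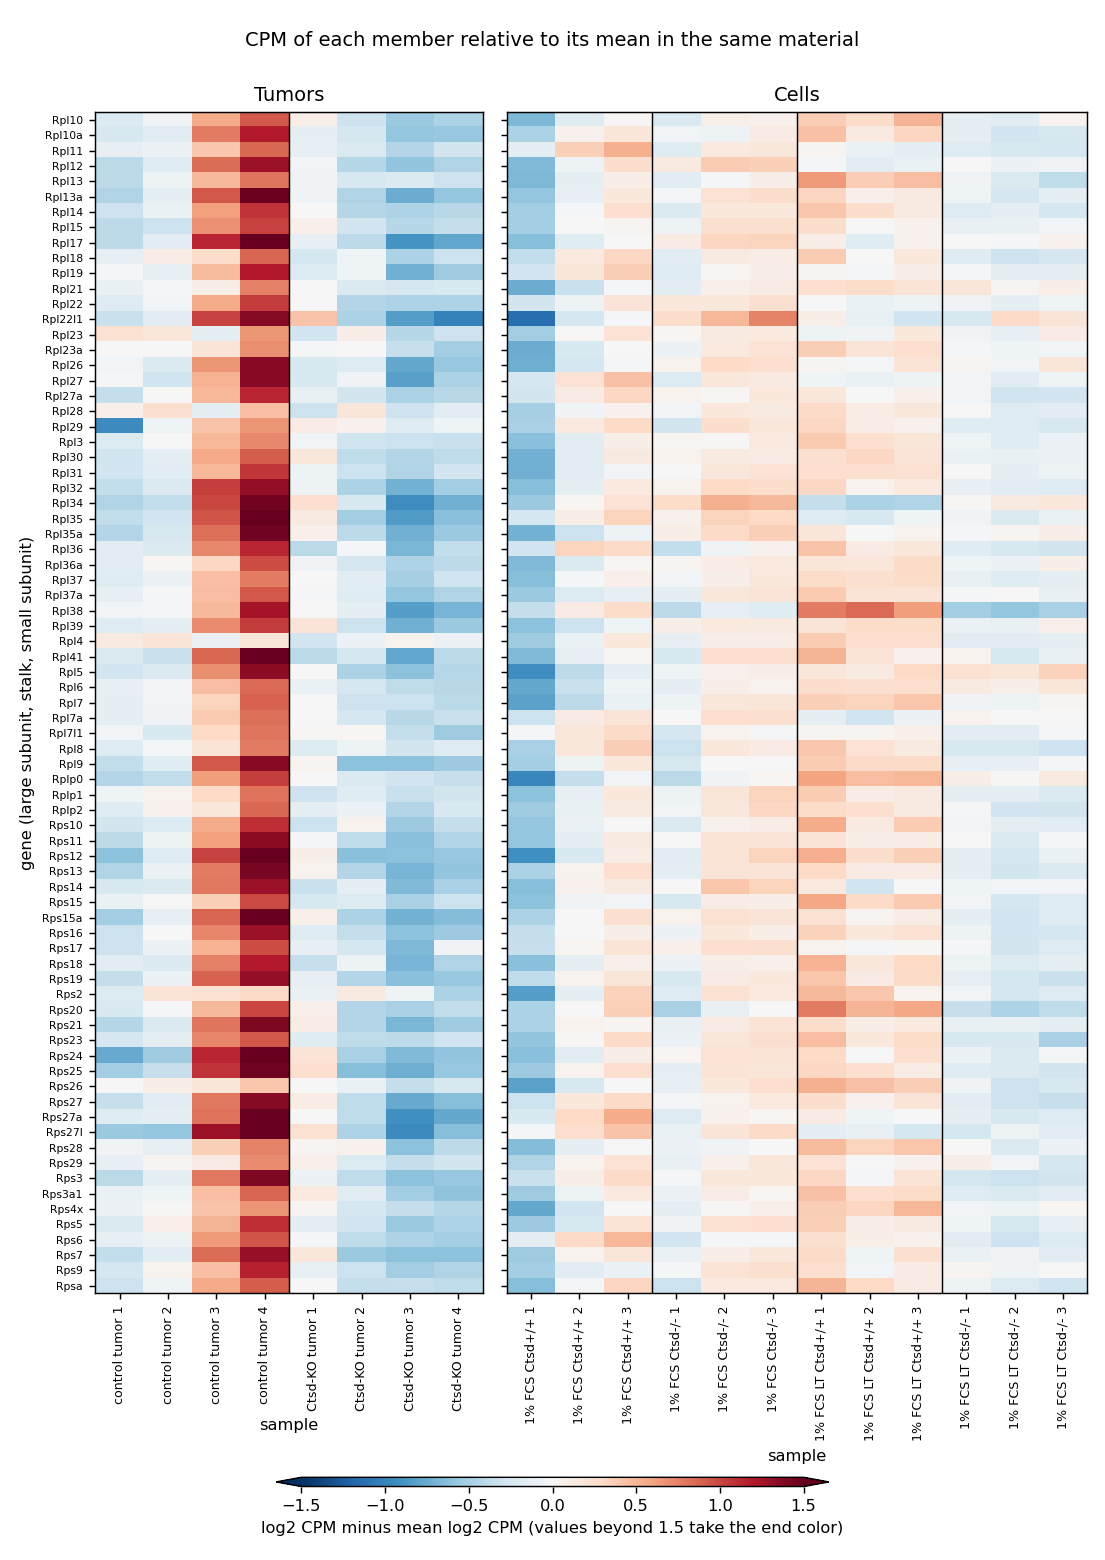
CPM of 77 members, each with a mean above 5 CPM over the 20 samples, as log2 difference from its own mean over the tumors (left) or over the cells (right); rows are genes in the order large subunit, stalk and small subunit, columns are samples, and red is higher. Control tumors 3 and 4 are red over almost the whole family, and in 1% FCS LT cells Rpl38 and Rps20 differ clearly between genotypes.

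Short transcripts outside the family moved the same way in tumors. Among protein-coding genes that are not members, the median log2 FC was -0.41 for transcripts under 750 bases (111 of 460 fell and 18 rose), -0.21 from 750 up to 1500 bases, -0.005 from 1500 up to 3000 bases and 0.13 from 3000 bases on, a split added after the data were seen. Members are short, and members under 775 bases had a median of -0.88 (37 of 41 fell) while members of 775 bases or more had -0.62 (30 of 41 fell). Other protein-coding genes under 750 bases took up 3.64, 4.00, 5.43 and 7.40% of the counts in control tumors and 4.89, 3.76, 3.54 and 3.64% in Ctsd-KO tumors. Control tumors 3 and 4 were again the highest of the 8. At the same threshold 8.27% of all genes tested fell and 8.44% rose. The part of transcript length in the decrease of the members was not tested.

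Related lists were read in the same fit, in which 8.27% of all genes tested fell and 8.44% rose. Of 77 mitochondrial ribosomal proteins, which build the separate ribosomes of mitochondria, 17 fell and 0 rose (median log2 FC -0.37). Of 21 elongation factors and other transcripts with a known TOP motif, 9 fell and 0 rose (median -0.36), among them Eef1a1, which carries aminoacyl-tRNAs to the ribosome (log2 FC -0.54, SE 0.26). Of the 114 named pseudogenes that were tested, 74 fell and 0 rose (median -0.86), and their reads cannot be fully told apart from those of their parent genes. Of 42 genes of RNA polymerase I and ribosomal RNA processing, 3 fell and 0 rose (median -0.03), and of 14 cell cycle genes 1 rose (median -0.02). Rack1, a scaffold protein on the small subunit, fell (log2 FC -0.81, SE 0.30), as did Fau, the fusion gene that encodes the small subunit protein eS30 (log2 FC -0.82, SE 0.32). Eif4ebp1, an inhibitor of cap-dependent translation and a target of mTORC1, rose (log2 FC 0.75, SE 0.31). These calls are at the unadjusted threshold, and the edgeR adjusted p was 0.544 or higher for each of these 4 genes.

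**Figure D3:**
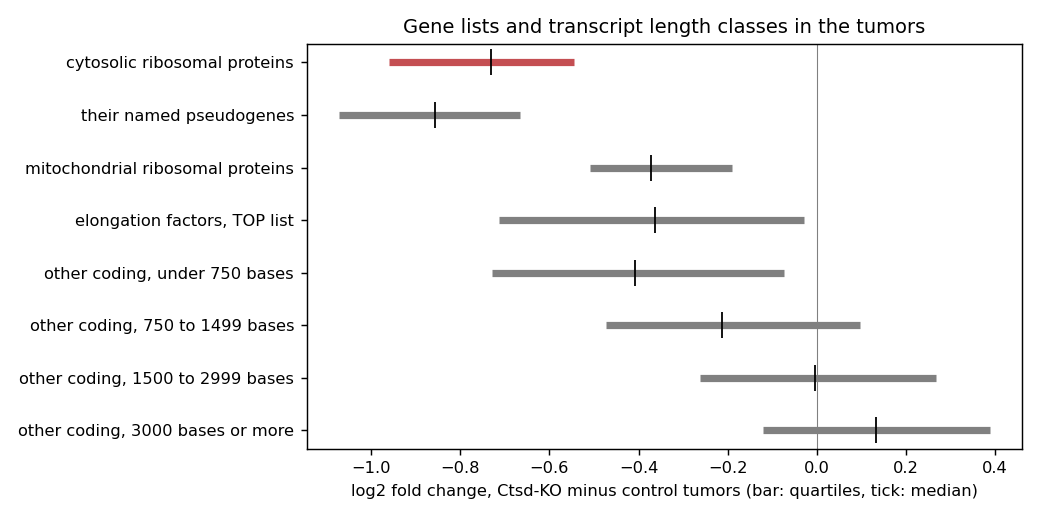
Log2 FC of Ctsd-KO minus control tumors for the ribosomal protein genes (red), related gene lists and other protein-coding genes by transcript length; each bar runs from the lower to the upper quartile and the tick is the median. The medians are -0.73 for the ribosomal proteins, -0.37 for the mitochondrial ones and -0.41 for other coding genes under 750 bases.

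In cells after 10 days in 1% FCS, most ribosomal protein genes had a higher mean in Ctsd-/- than in Ctsd+/+ cells, and a minority passed the test. The median log2 FC was 0.20 (0.00 for all 15178 genes tested) and 65 of 80 members had a higher mean. At an adjusted p of 0.05, 12 members rose and 1 fell, beside 23.5% of all genes that rose and 25.1% that fell. Groups did not overlap for 12 members, all higher, while 27.6% of all genes did not overlap and were higher and 27.6% were lower. Both counts of members are lower in share than those of all genes tested.

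Rpl22l1, a second form of the large subunit protein Rpl22, had the largest difference. The Ctsd+/+ samples gave 31.5, 57.1 and 67.2 CPM, and the Ctsd-/- samples 82.2, 97.2 and 115 CPM (log2 FC 0.92, SE 0.25, adjusted p = 0.00891). Every Ctsd-/- sample was above every Ctsd+/+ sample. Rpl35a followed with 105, 137 and 162 CPM and 184, 209 and 219.6 CPM (log2 FC 0.60, SE 0.14, adjusted p = 0.00407). Rpl26, which also binds the messenger RNA of p53, differed by a log2 FC of 0.52, SE 0.16 (adjusted p = 0.0178), Rpl17 0.51, SE 0.15 (adjusted p = 0.0137) and Rpl34 0.50, SE 0.16 (adjusted p = 0.0222). Of the members that rose, 11 belong to the large subunit and 1 to the small subunit.

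The 1% FCS Ctsd+/+ group was the most variable. Its replicate 1 was the lowest of the 12 cell samples for 68 of the 80 members, and its share of 2.00% was the lowest of all. Without it 6 members rose and 7 fell, with a median log2 FC of 0.04. Without its replicate 2, 8 rose and 0 fell, and without its replicate 3, 30 rose and 0 fell. Without Ctsd-/- replicate 2, 4 rose and 1 fell, and without Ctsd-/- replicate 3, 4 rose and 0 fell; Rpl26 and Rpl34 did not pass without either of the last 2 (log2 FC 0.45 to 0.50). Replicate 1 of both genotypes was sequenced in another run than replicates 2 and 3, and within the run that holds 8 of the 12 cell samples 9 members rose and 4 fell.

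After 12 weeks the direction of most members was the opposite: ribosomal protein transcripts were lower in 1% FCS LT Ctsd-/- than in 1% FCS LT Ctsd+/+ cells. Of 80 members, 72 had a lower mean and the median log2 FC was -0.34 (0.01 for all genes tested). At an adjusted p of 0.05, 22 fell and 1 rose, beside 19.1% of all genes that fell and 20.5% that rose. Groups did not overlap for 62 members that were lower and 2 that were higher, beside 26.4% and 27.9% of all genes. The decrease was thus small and present in most members, and the share of members past the test was 22 of 80. Of the small subunit 13 of 32 members fell (median -0.45), of the large subunit 9 of 45 (median -0.31), and of the stalk 0 of 3 (median -0.41).

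Among the members that passed the test, Rpl38 and Rps20 changed by more than 2-fold. Rpl38 is a small protein of the large subunit that is needed for translation of some Hox messenger RNAs in the embryo. Its gene (ENSMUSG00000057322) lies at chr11:114668524-114672331 on the plus strand, and its transcript has 5 exons and 364 bases. The Ctsd+/+ samples gave 233, 246 and 211 CPM, and the Ctsd-/- samples 95.4, 91.9 and 97.5 CPM (log2 FC -1.28, SE 0.15, adjusted p = 4.29e-05). The lowest Ctsd+/+ sample was more than 2-fold above the highest Ctsd-/- sample.

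Rps20, a small subunit protein whose gene (ENSMUSG00000028234) lies at chr4:3831334-3835665 on the minus strand, had 614, 509.7 and 536 CPM and 280.3, 260.0 and 275 CPM (log2 FC -1.03, SE 0.19, adjusted p = 0.0012). The 3 Ctsd-/- samples lay within a narrow band far below the Ctsd+/+ samples. These genes kept their direction and their call under all 22 alternatives that were run for them, with log2 FC between -1.36 and -1.23 for Rpl38 and between -1.08 and -0.94 for Rps20.

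Smaller decreases were seen in Rpl13 and Rps26. Rpl13 had 514, 427 and 454 CPM and 318, 285 and 254 CPM (log2 FC -0.70, SE 0.17, adjusted p = 0.00694). Rps26, which contacts the messenger RNA upstream of the start codon, had 413, 387 and 368 CPM and 274, 229.6 and 241 CPM (log2 FC -0.65, SE 0.18, adjusted p = 0.0119), and its call was lost without Ctsd-/- replicate 2 (log2 FC -0.59). The member that rose was Rpl34, at 119, 110.0 and 112 CPM for Ctsd+/+ and 154, 167 and 171 CPM for Ctsd-/- (log2 FC 0.53, SE 0.16, adjusted p = 0.0215). All Ctsd-/- samples were above all Ctsd+/+ samples, and the call was lost without replicate 2 or 3 of either genotype (log2 FC 0.50 to 0.52).

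Rps6, Rpsa, Rplp0 and Rps27a, given above in tumors, had smaller differences. Rps6 had 227, 204 and 200 CPM for Ctsd+/+ and 171, 155 and 166 CPM for Ctsd-/- (log2 FC -0.36, SE 0.14, adjusted p = 0.0687), and Rpsa 1375, 1181 and 1052 CPM and 916, 836 and 784 CPM (log2 FC -0.51, SE 0.22, adjusted p = 0.0855). Rplp0 had 2883, 2624 and 2684 CPM and 2028, 1935 and 2095 CPM (log2 FC -0.44, SE 0.20, adjusted p = 0.111). None of these passed the test, although the genotypes did not overlap in any of them. Rps27a, the ubiquitin fusion, had 429.6, 378 and 397 CPM and 355, 335 and 344 CPM (log2 FC -0.22, SE 0.16, adjusted p = 0.317).

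The number of members called after 12 weeks moved with single libraries more than the median did. Without one cell sample at a time, 5 to 49 members were called and the median log2 FC stayed between -0.38 and -0.29. The counts were 7 without LT Ctsd+/+ replicate 1, 12 without its replicate 3, 14, 5 and 10 without LT Ctsd-/- replicates 1, 2 and 3, and 49 and 41 without replicates 1 and 3 of 1% FCS Ctsd+/+, which are in neither group compared but share the fit and its scaling. Within the run that holds 8 of the 12 samples, 42 members fell and 1 rose. DESeq2 called 34 lower and 1 higher.

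**Figure D4:**
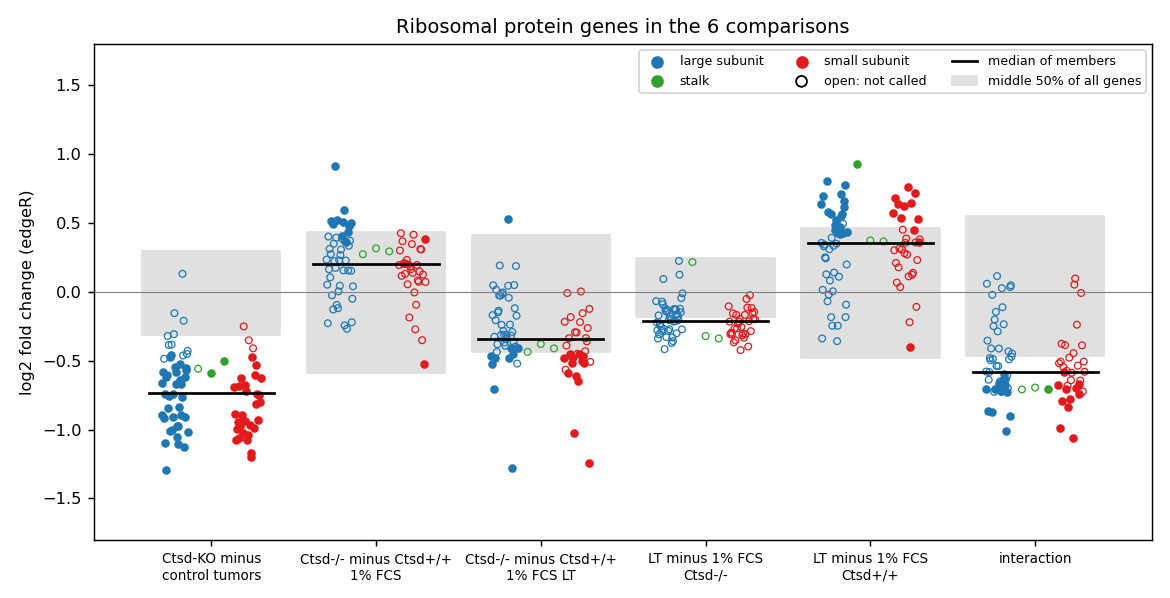
Log2 FC of each ribosomal protein gene in the 6 comparisons; points are genes of the large subunit (blue), stalk (green) and small subunit (red), filled where called (p under 0.1 in tumors, adjusted p under 0.05 in cells), black lines are medians of the members and grey boxes the middle 50% of all genes tested. The medians are -0.73 in tumors, 0.20 after 10 days, -0.34 after 12 weeks, -0.21 and 0.36 for 12 weeks against 10 days in Ctsd-/- and Ctsd+/+ cells, and -0.58 for the interaction.

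Time in culture was compared within each genotype. These comparisons use the same samples as the comparisons of genotype. In Ctsd+/+ cells the mesenchymal marker Vim was at 2749.9, 2968 and 3481 CPM after 10 days and at 3.03, 0.906 and 7.17 CPM after 12 weeks (log2 FC -9.69, adjusted p = 3.76e-05), and the fibroblast and luminal markers differed between the same samples as given above. In this genotype, time in culture and a difference in the cells sampled cannot be told apart. In Ctsd-/- cells Vim was at 8.61, 11.1 and 9.76 CPM after 10 days and at 809.8, 506 and 38.1 CPM after 12 weeks. In Ctsd-/- cells 76 of 80 members had a lower mean after 12 weeks than after 10 days, with a median log2 FC of -0.21, and no member passed an adjusted p of 0.05 in edgeR, DESeq2 or limma-voom. In edgeR 9 members had an unadjusted p under 0.05. Of all genes tested, 1.57% rose and 0.81% fell. Groups did not overlap for 30 members that were lower and 1 that was higher, beside 11.9% and 13.5% of all genes.

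In Ctsd+/+ cells 68 of 80 members had a higher mean after 12 weeks, with a median log2 FC of 0.36. At an adjusted p of 0.05, 31 rose and 1 fell, beside 23% of all genes that rose and 23.4% that fell. Groups did not overlap for 36 members that were higher and 1 that was lower, beside 27.3% and 26.3% of all genes. Rplp0 had 971, 1490.1 and 1853 CPM after 10 days and 2883, 2624 and 2684 CPM after 12 weeks (log2 FC 0.93, SE 0.20, adjusted p = 0.00302). All samples after 12 weeks were above all samples after 10 days. Rpl7, Rps26 and Rps4x, the X-linked form of a small subunit protein, rose with log2 FC of 0.78, 0.76 and 0.72 (SE 0.16, 0.18 and 0.16, adjusted p = 0.00174, 0.00405 and 0.00376).

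The member that fell in Ctsd+/+ cells was Rps27l, a second form of Rps27 and a target of p53. It had 104, 127 and 144 CPM after 10 days and 96.3, 99.0 and 88.6 CPM after 12 weeks (log2 FC -0.40, SE 0.13, adjusted p = 0.0252). The call was lost without replicate 2 or 3 of 1% FCS Ctsd+/+ or replicate 1 or 3 of 1% FCS LT Ctsd+/+ (log2 FC -0.42 to -0.29). The count of members that rose was 18 without 1% FCS LT Ctsd+/+ replicate 1 and 21, with 7 that fell, without 1% FCS Ctsd+/+ replicate 1. It was 47 without 1% FCS Ctsd+/+ replicate 3, with 0 that fell. Within the run of 8 samples 20 rose and 7 fell. The samples of the 1% FCS Ctsd+/+ group with fibroblast markers are one side of this comparison, and the part of these markers was not tested.

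The difference between the genotype effects at the 2 times was tested as an interaction, in which a value below 0 means that the log2 FC of Ctsd-/- minus Ctsd+/+ cells was lower after 12 weeks than after 10 days. The median over the members was -0.58 and 73 of 80 were below 0. At an adjusted p of 0.05, 26 members were lower and 0 higher, beside 14.1% of all genes that were lower and 16.1% that were higher. Rps26 had the largest interaction (log2 FC -1.06, SE 0.25, adjusted p = 0.00726), then Rpl38 (-1.01, SE 0.21, adjusted p = 0.00327), Rps12 (-0.99, SE 0.31, adjusted p = 0.03) and Rpl7 (-0.90, SE 0.22, adjusted p = 0.00959).

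Rps26 had 164, 241 and 285 CPM for Ctsd+/+ and 262, 317 and 339 CPM for Ctsd-/- after 10 days, and the order of the genotypes was reversed after 12 weeks in the values given above. Rpl38 had 107, 149.5 and 166 CPM and 104, 126 and 121 CPM after 10 days, where the genotypes overlapped. The call of Rps12 was lost without replicate 2 or 3 of 1% FCS Ctsd-/-, replicate 1 of 1% FCS LT Ctsd+/+, or replicate 1 or 2 of 1% FCS LT Ctsd-/- (log2 FC -1.0 to -0.88). Without one sample at a time, 6 to 57 members were lower: 57 without 1% FCS Ctsd+/+ replicate 3, 9 and 6 without 1% FCS Ctsd-/- replicates 2 and 3, 9 and 15 without 1% FCS LT Ctsd+/+ replicates 1 and 3, and 12, 7 and 15 without 1% FCS LT Ctsd-/- replicates 1, 2 and 3. Within the run of 8 samples 25 were lower.

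**Figure D5:**
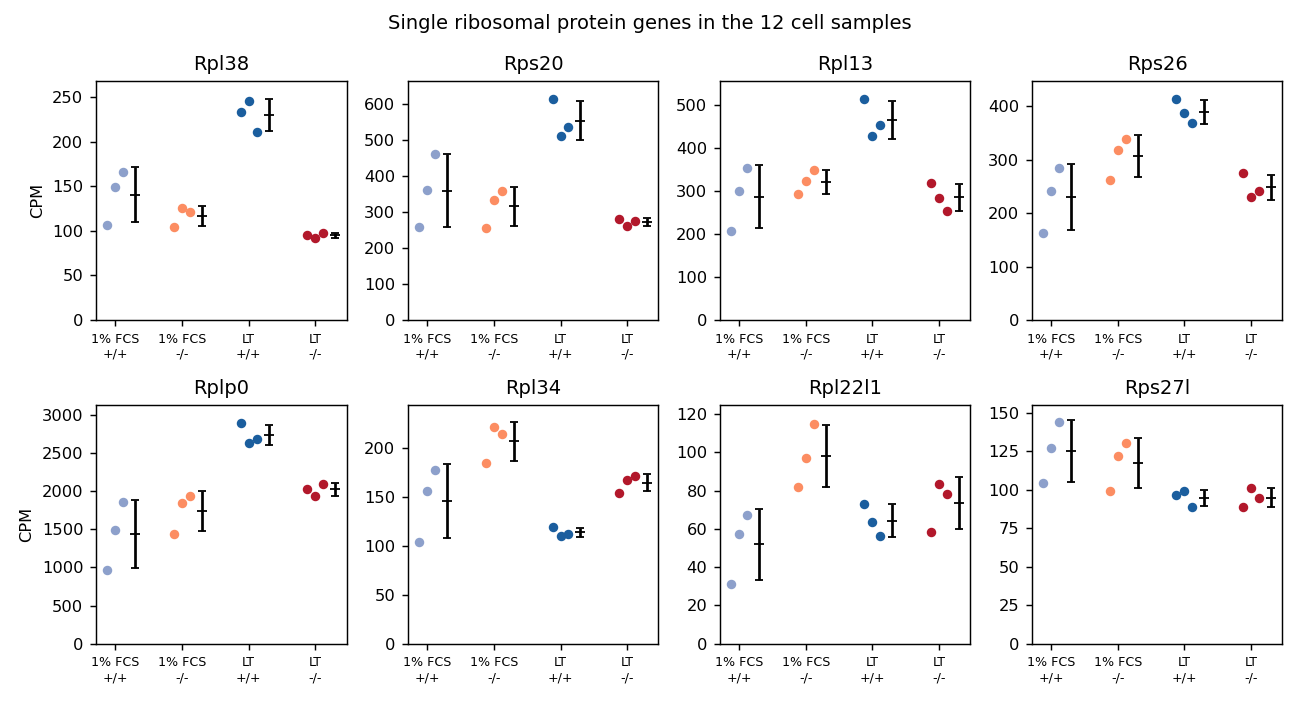
CPM of 8 ribosomal protein genes in the 12 cell samples by group (1% FCS, 10 days; LT, 12 weeks; +/+ and -/-, Ctsd genotype); points are samples and bars the mean and SD of 3 samples. Rpl38 is at 211 to 246 CPM in 1% FCS LT Ctsd+/+ and at 91.9 to 97.5 CPM in 1% FCS LT Ctsd-/- cells, Rps20 and Rpl13 are also lower in 1% FCS LT Ctsd-/- cells without overlap, and Rpl34 is higher in Ctsd-/- cells at both times.

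The balance of the subunits differed between the cell groups. The ratio of large to small subunit counts was 1.18, 1.17 and 1.15 in Ctsd+/+ and 1.26, 1.22 and 1.23 in Ctsd-/- cells after 10 days. After 12 weeks it was 1.12, 1.19 and 1.18 and 1.26, 1.30 and 1.33. It was higher in Ctsd-/- cells at both times without overlap of the genotypes. In tumors it was 1.18, 1.14, 1.02 and 0.999 in control and 1.08, 1.17, 1.21 and 1.20 in Ctsd-KO tumors, with the lowest values in control tumors 3 and 4. These ratios are descriptions of counts, which depend on the reads that each gene keeps in the counting.

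A few members have a second copy in the genome, and the balance between copies was read per kb. Rpl22l1 amounted to 31.1 ± 7.4 per 100 of Rpl22 in 1% FCS Ctsd+/+ cells, 51.1 ± 6.9 in 1% FCS Ctsd-/-, 39.8 ± 4.1 in 1% FCS LT Ctsd+/+ and 46.5 ± 9.7 in 1% FCS LT Ctsd-/- (SD over the 3 samples of each group). Rpl22 itself had a log2 FC of 0.22 after 10 days (SE 0.11, adjusted p = 0.114), so that the ratio differed mostly by Rpl22l1. In tumors the ratio was 15.1 ± 3.2 in controls and 12.9 ± 4.1 in Ctsd-KO tumors (SD, n = 4 each). Rps27l per 100 of Rps27 was 57.2 ± 4.1, 53.1 ± 4.6, 39.8 ± 4.3 and 54.5 ± 6.4 in the same order of cell groups, lowest in 1% FCS LT Ctsd+/+ cells. Rpl7l1, a distant relative of Rpl7 that acts in assembly of the large subunit, stood at 7.76 ± 1.0, 4.6 ± 0.16, 4.16 ± 0.047 and 4.86 ± 0.076 per 100 of Rpl7. Rpl7l1 did not pass the test in any of the 6 comparisons, whereas Rpl7 was called in 4 (tumors, 1% FCS, time in Ctsd+/+ cells and the interaction). Rpl39l and Rpl3l were at 0 to 0.048 CPM in cells.

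Other genes of translation were read from fixed lists in cells. Fau was at 160.3, 242 and 263 CPM in 1% FCS Ctsd+/+ and 333, 476 and 483 CPM in 1% FCS Ctsd-/- cells (log2 FC 0.96, SE 0.18, adjusted p = 0.0012). Its log2 FC over time in Ctsd+/+ cells was 0.92 (SE 0.18, adjusted p = 0.00168) and its interaction -1.16 (SE 0.26, adjusted p = 0.00571). Rack1 was not called in any of the cell comparisons (log2 FC -0.19 to 0.10).

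Of the 21 elongation factors and other TOP transcripts, 6 rose and 1 fell in Ctsd-/- cells after 10 days, 4 rose and 7 fell after 12 weeks, 9 rose and 3 fell over time in Ctsd+/+ cells, and 1 rose and 0 fell over time in Ctsd-/- cells. In the interaction 1 was higher and 10 were lower. Of all genes tested, 23.5% rose and 25.1% fell after 10 days, and 20.5% rose and 19.1% fell after 12 weeks. Over time 23% rose and 23.4% fell in Ctsd+/+ cells, and 1.57% and 0.81% in Ctsd-/- cells. For the interaction these shares were 16.1% higher and 14.1% lower. Tpt1, which encodes the growth-related protein TCTP, behaved like the members that fell most: it had 1589, 1369 and 1831 CPM in 1% FCS LT Ctsd+/+ and 676, 629 and 781 CPM in 1% FCS LT Ctsd-/- cells (log2 FC -1.20, SE 0.19, adjusted p = 0.000397). Eef1a1 and Eef2, the main elongation factors, rose in Ctsd-/- cells after 10 days (log2 FC 0.65, SE 0.16, adjusted p = 0.00588, and 0.51, SE 0.15, adjusted p = 0.0149) and did not pass after 12 weeks (0.05 and -0.28). Pabpc1, the poly(A)-binding protein, rose at both times (1.27, SE 0.17, adjusted p = 9.16e-05, and 0.49, SE 0.17, adjusted p = 0.0363). The member of this list with the largest change was Vim, which is also a mesenchymal marker; it was at 2749.9, 2968 and 3481 CPM in 1% FCS Ctsd+/+ cells and at 11.1 CPM or less in 1% FCS Ctsd-/- cells.

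Regulators of translation had calls in both directions. Eif4e, the cap-binding protein, was at 46.1, 44.4 and 37.2 CPM in 1% FCS LT Ctsd+/+ and 90.6, 106 and 104 CPM in 1% FCS LT Ctsd-/- cells (log2 FC 1.24, SE 0.17, adjusted p = 0.00018). Larp1 rose in Ctsd-/- cells after 10 days (log2 FC 0.26, SE 0.09, adjusted p = 0.038) and over time in Ctsd+/+ cells (0.44, SE 0.09, adjusted p = 0.00214). Of the 15 genes of cap recognition and TOP control, 9 rose and 1 fell after 10 days and 2 rose and 1 fell after 12 weeks. The shares over all genes tested were 23.5% higher and 25.1% lower after 10 days, and 20.5% and 19.1% after 12 weeks. Rps6kb1, the S6 kinase that phosphorylates RPS6, rose in 1% FCS LT Ctsd-/- cells (log2 FC 0.43, SE 0.08, adjusted p = 0.00151). Of the 10 listed genes with symbols that begin with Rps6k, 5 rose and 2 fell in this comparison. The list goes by symbol and also holds the Rps6ka genes, Rps6kc1 and Rps6kl1. Myc was not called in any of the 6 comparisons (log2 FC -0.55 to 0.35), but the related genes Mycn and Mycl were called in cells. After 10 days both were lower in Ctsd-/- cells (log2 FC -9.81 and -2.80, adjusted p = 7.96e-06 and 0.000431). After 12 weeks Mycn was lower (-3.18, adjusted p = 0.00823). In the interaction both were above 0 (6.63 and 3.21, adjusted p = 0.00918 and 0.00437). Their part in the levels of the members was not tested.

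Genes that make and assemble ribosomes also had calls in both directions, as did all genes tested. Of all genes, 23.5% rose and 25.1% fell after 10 days, and 20.5% rose and 19.1% fell after 12 weeks. Of 42 genes of RNA polymerase I and ribosomal RNA processing, 11 rose and 7 fell in Ctsd-/- cells after 10 days and 6 rose and 10 fell after 12 weeks (medians 0.01 and -0.21). Of 13 chaperones and import factors of ribosomal proteins, 4 rose and 2 fell after 10 days and 1 rose and 0 fell after 12 weeks. Of 77 mitochondrial ribosomal proteins, 16 rose and 12 fell after 10 days and 13 rose and 14 fell after 12 weeks (medians 0.12 and 0.06). Over time in Ctsd+/+ cells the mitochondrial list had 17 genes higher and 11 lower with a median of 0.04, beside 0.36 for the cytosolic family. Over this time 23% of all genes tested rose and 23.4% fell. In each of these comparisons and directions, the mitochondrial list had a smaller share called than all genes. Of the 14 cell cycle genes, 0 rose and 4 fell after 10 days and 1 rose and 1 fell after 12 weeks. All 14 had a negative log2 FC after 10 days (median -0.63), and 9 had one after 12 weeks (median -0.01). Over time in Ctsd-/- cells all 14 had a positive log2 FC (median 0.31), and none was called. In the interaction all 14 were above 0 (median 0.62) and 3 were called, beside 16.1% of all genes that were higher.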

How the data were processed

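Per the submitters' processing notes the reads were mapped with STAR to mm10. The authors deposited raw read counts per Ensembl gene for each of the 20 samples, with no normalization, and left out reads that map to several places or overlap more than one gene. The annotation release is not given in the sources used here. GENCODE M21 supplied symbols, lengths and positions for 45143 of the 45706 identifiers. In tumors the deposited counts without regard to strand were used, since the strand was not kept (52.8% to 53.7% of strand-assigned counts on the opposite strand), and in cells those on the opposite strand (97.1% to 97.3%).

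The tests used edgeR 4.0.16 in R 4.3.3 (filterByExpr, TMM, two-sided quasi-likelihood F-test, Benjamini-Hochberg adjustment over all genes tested), the 8 tumors in one fit and the 12 cell samples in another with 4 groups. Log2 FC are edgeR's estimates. The test reports no standard error, and SE here is the absolute log2 FC divided by the square root of its F statistic. Called means an unadjusted p under 0.1 in tumors and an adjusted p under 0.05 in cells. Where no tool is named, a p or adjusted p comes from edgeR. The common biological coefficient of variation was larger among tumors (0.429) than among cells (0.217). With 200 genes changed among 18617 in simulated tumors, 93% of 4-fold and 75% of 2-fold changes were recovered. Among 15178 genes in simulated cells these were 80% and 59%. Of the unchanged genes, 9.32% were called in simulated tumors and 0.013% in simulated cells. These rates hold for 200 changed genes with changes of 2-fold or 4-fold. In the data most members changed by less than 2-fold, and far more genes were called in most cell comparisons. The rates therefore do not tell how often changes of the size seen in members are found. Replicates of a group differed by more than sampling noise.

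Members, lists and tests were chosen with earlier results of these data known. Named genes were the core members listed for their known roles and the second copies, up to 5 members per direction and comparison with the largest change among those called without overlap, the highest and lowest levels per kb, and up to 2 genes per list and direction. Some genes are not reported here, and they stay in the counts and medians. Alternatives were DESeq2 1.42.0, limma-voom (limma 3.58.1), other scalings and filters, other count columns, added pseudogenes, a replicate block, covariates, a single sequencing run and leaving out each replicate.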

Additional observations from a re-analysis of the deposited data

Results flagged for a closer look

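In tumors, a sample far from the other 3 of its group was looked for in 62 sets of 4 values, where chance gives about 1 in 20. Ctsd-KO tumor 1 stood above the other Ctsd-KO tumors for 4 named members. It had 2479.6 CPM of Rpsa against 1914 to 1961 in the others, 2084 CPM of Rpl3 against 1701 to 1748, 352 CPM of Rpl22 against 257 to 262, and 566 CPM of Rps12 against 347 to 359.7. Control tumor 4 had 3.25 CPM of Rpl3l, the form of Rpl3 found in striated muscle, against 0.030 to 0.25 CPM in the other control tumors. The summed level of 10 skeletal muscle markers was 1396 CPM in control tumor 4 and 308 CPM in Ctsd-KO tumor 1, the tumors with the highest and next highest Rpl3l (3.25 and 0.93 CPM), and 7.27 to 83.7 CPM in the other 6. Its part in the level of Rpl3l was not tested.

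In cells, the effect of Ctsd genotype differed between 10 days and 12 weeks by the interaction test for 4 members with a large such difference. The interaction log2 FC was -1.06 for Rps26, -1.01 for Rpl38, -0.99 for Rps12 and -0.90 for Rpl7, with edgeR adjusted p of 0.00726, 0.00327, 0.03 and 0.00959. For Rpl38 the Ctsd-/- cells were lower at both times in the group means, and for the other 3 they were higher after 10 days and lower after 12 weeks. The 1% FCS Ctsd+/+ samples enter each of these values, and in them summed fibroblast markers reached 1178 to 3310 CPM against 3.05 to 99.8 CPM in the other cells. Their part in the interaction was not tested.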

How the results depend on the processing

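Over the alternatives, 266 of the values that summarize a comparison or a share of counts stayed close to the reported one and 38 moved. The moved counts of called members in tumors, beside 67, were 19 with luminal markers as a covariate, 0 with adipocyte markers as a covariate, 0 at an adjusted p of 0.05, and 2 with control tumors 3 and 4 left out together, where the median log2 FC was -0.13. Without one tumor at a time 29 to 74 were called, with medians from -0.89 to -0.43. In 1% FCS LT cells, beside 23, DESeq2 called 35 and the single sequencing run 43. For the interaction, beside 26, DESeq2 called 41. With an absolute log2 FC above 1 required as well, the counts were 0 in 1% FCS, 3 in 1% FCS LT, 0 over time in Ctsd+/+ cells and 2 for the interaction. Without one cell sample at a time the counts were 4 to 30 in 1% FCS (medians 0.04 to 0.33), 5 to 49 in 1% FCS LT (-0.38 to -0.29), 0 over time in Ctsd-/- cells (-0.28 to -0.17), 18 to 47 over time in Ctsd+/+ cells (0.18 to 0.54) and 6 to 57 for the interaction (-0.72 to -0.39). Over counts on nuclear protein-coding genes the share was 4.00% in 1% FCS LT Ctsd+/+ and 3.23% in 1% FCS LT Ctsd-/- cells. The cause of these moves was not tested, except that fewer samples or a stricter threshold are part of the setting.

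Replicate numbers were not taken as a pairing, since deviations of same-numbered samples did not correlate above 0.1 in every pair (tumors -0.30 to -0.0075). In cells the correlation was 0.10 to 0.36 between the genotypes in 1% FCS and 0.0018 to 0.12 in 1% FCS LT. Between the times it was 0.077 to 0.19 in Ctsd-/- and -0.14 to -0.033 in Ctsd+/+ cells. Replicate 1 of both 1% FCS groups and replicate 3 of both 1% FCS LT groups were sequenced in other runs than the remaining cell samples. With a replicate block, 23 members were called in tumors, and in cells 15 in 1% FCS, 26 in 1% FCS LT, 0 over time in Ctsd-/- cells, 32 over time in Ctsd+/+ cells and 28 for the interaction.

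Of the single genes, 904 values kept direction and call, 163 lost the call and 1 changed sign: Rps27l in tumors had a log2 FC of 0.18 without control tumors 3 and 4. Counts were low for Rpl3l, Rpl39l, Rpl10l and Rpl24 (12 to 76 counts a sample for Rpl24), and depth limits what can be said of them. With 3 or 4 samples a group, the spread between samples set the precision.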

Other observations

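Small nucleolar RNA genes lie inside 30 of the 83 members. In Ctsd+/+ cells 16 of these 30 host genes rose from 10 days to 12 weeks and 0 fell (median log2 FC 0.44, beside 0.36 for all members; 23% of all genes tested rose), and in 1% FCS LT 9 of them were lower in Ctsd-/- than in Ctsd+/+ cells (median -0.38, beside -0.34; 19.1% of all genes tested were lower). In tumors 25 of the 30 fell (median -0.64, beside -0.73; 8.27% of all genes tested fell).

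Among the 42 members of 775 bases or more, 12 of the 39 tested fell in 1% FCS LT Ctsd-/- cells (median log2 FC -0.39), and among the 41 shorter members 10 fell (median -0.32), so that the order of these length classes in cells was not that of the tumors. Of the 15 members with fewer than 30% of their windows in other genes, 9 of 14 tested fell in tumors (median -0.76) and 3 of 12 tested fell in 1% FCS LT (median -0.32). Of all genes tested, 8.27% fell in tumors and 19.1% were lower in 1% FCS LT Ctsd-/- cells, beside each of these counts. Named pseudogenes amounted to 2.92 to 3.57 counts per 100 counts of members in every sample. Mxd1, a member of the MYC network, differed between 1% FCS LT Ctsd-/- and Ctsd+/+ cells by -3.18 on the log2 scale (SE 0.12, edgeR adjusted p = 1.31e-08). Mycn was also lower (log2 FC -3.18, SE 0.80, edgeR adjusted p = 0.00823), while Myc did not pass (log2 FC -0.20).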
